A study of Mus musculus with 16 samples.

Results

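The genes described are 10 components of the epithelial tight junction, of 21965 genes in the count table of the mouse terminal ileum: the claudins Cldn2, Cldn3, Cldn4, Cldn7, Cldn8, Cldn12, Cldn15 and Cldn23, the transmembrane protein Ocln (occludin) and the scaffold Tjp1 (zonula occludens-1, ZO-1). They were taken as the rows whose Ensembl identifiers carry these symbols, and all 10 had enough counts to be tested. Bulk RNA sequencing was done on the ileum of 16 male C57BL/6 mice aged 8 to 10 weeks at the start, in 4 groups. Wild-type (WT) mice received the pair-fed control diet (WT PF, n = 4) or an ethanol diet (WT EtOH, n = 3), and littermates heterozygous for the fat-1 transgene (written Fat1+/- in the sample labels) received the same diets (fat-1 PF, n = 4, and fat-1 EtOH, n = 5). The fat-1 transgene encodes a fatty acid desaturase of Caenorhabditis elegans that makes n3 from n6 polyunsaturated fatty acids in all tissues, and it is unrelated to the mouse cadherin gene of a similar name. All mice were fed a liquid diet, in which maltose dextrin replaced the calories of EtOH in the PF groups and EtOH was raised stepwise to 6% and held there for 3 weeks. The comparisons ask how chronic EtOH and endogenous n3 fatty acids bear on these transcripts, singly and together.

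Tight junctions seal the space between neighbouring epithelial cells and set which ions and solutes may pass through it. Claudins form the strands: some, such as CLDN2 and CLDN15, make paracellular channels for small cations and water, and others, such as CLDN3, CLDN4 and CLDN8, are mainly counted as sealing. Occludin joins the strands, and ZO-1 ties them beneath the membrane to the actin cytoskeleton. In the intestine the mix of claudins changes along the length of the gut and between crypt and villus, with CLDN15 the main sodium channel of the small intestine, CLDN2 prominent in crypts and CLDN8 best known from the colon and the kidney.

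The promoters of 3 of the 4 genes called below are shown as sequence context, and no measurement here bears on their motifs. RefSeq windows (GRCm38.p6, 250 bases before to 50 bases after the transcription start) held 8 of the 10 genes, and Cldn8 and Cldn23 have no entry there. The windows of Cldn15 and Tjp1 lie inside the gene spans given below, so they are not at the outer 5′ end of these genes. In lower case, with the searched letters in capitals, the windows of Cldn2 (chrX:139800558-139800857, plus strand), Cldn15 (chr5:136967619-136967918, plus strand) and Tjp1 (chr7:65371195-65371494, minus strand) read 5′ to 3′ as follows.
Cldn2: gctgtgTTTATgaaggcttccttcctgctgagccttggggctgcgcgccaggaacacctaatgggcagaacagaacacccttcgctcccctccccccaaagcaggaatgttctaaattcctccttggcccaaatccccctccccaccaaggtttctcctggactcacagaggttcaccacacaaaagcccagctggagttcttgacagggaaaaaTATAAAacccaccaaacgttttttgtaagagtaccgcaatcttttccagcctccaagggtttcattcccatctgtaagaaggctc
Cldn15: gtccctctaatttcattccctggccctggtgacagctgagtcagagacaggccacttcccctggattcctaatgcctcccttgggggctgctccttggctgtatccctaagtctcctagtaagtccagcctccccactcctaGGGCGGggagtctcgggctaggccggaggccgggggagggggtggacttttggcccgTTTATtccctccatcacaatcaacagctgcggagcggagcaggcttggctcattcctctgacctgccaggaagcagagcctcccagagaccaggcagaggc
Tjp1: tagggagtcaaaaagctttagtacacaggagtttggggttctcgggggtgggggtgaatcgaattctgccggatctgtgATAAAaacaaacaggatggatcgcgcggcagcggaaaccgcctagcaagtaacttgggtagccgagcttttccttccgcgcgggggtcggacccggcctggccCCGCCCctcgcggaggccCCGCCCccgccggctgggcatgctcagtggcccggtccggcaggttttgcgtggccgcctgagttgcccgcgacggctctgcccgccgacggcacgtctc
The capitals mark matches on either strand to any of the motifs searched. These were the TATA box, TATAAA, the element where the general transcription machinery can bind. The GC box, GGGCGG, is bound by factors of the SP family. The core letters of the intestinal CDX factors are TTTAT. For the liver and gut factor HNF4 the letters searched were CAAAGNNCA, and for its partner HNF1 they were GTTAAT, which is one side of a longer site. The CDX core letters were found in the windows of 3 of the 8 genes, Cldn2, Cldn15 and Tjp1, and 40.0% of all 32851 windows hold it. In Cldn2 one of the matches to TTTAT overlaps the TATA box, which begins 35 bases before the start, and Cldn2 alone of the 8 genes had TATAAA, held by 13.6% of windows. GGGCGG was found in at least 1 window of 7 of the 8 genes, all but Cldn2 (some genes have several windows), against 35.7% of windows. Neither the HNF4 nor the HNF1 letters, held by 6.36% and 7.10% of windows, were in any of the 8. The Tjp1 window was rich in CpG, with 31 CpG dinucleotides against 5 in Cldn2, 7 in Cldn15 and a median of 7 over all windows.

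Libraries held 8422645 to 11438539 counts, so that 3 counts, the floor below which a level was not read, correspond to 0.246 to 0.421 CPM (counts scaled to a common library size). Several libraries stood apart in marker genes that change along the gut and are described before the results. Markers of the proximal small intestine (Gata4, Lct, Fabp1, Apoa4, Apoc3, Slc2a2, Cyp2b10 and Cyp3a11) summed to 1988 to 53403 CPM in the 8 PF mice and to 20.7 to 461 CPM in the 8 EtOH mice, with no overlap. Gata4, a transcription factor of the duodenum and jejunum, was at 25.6 to 156 CPM in PF mice and at 0 to 1.11 CPM in EtOH mice. Among PF mice, fat-1 PF 2 and 4 had the highest proximal sums, 53403 and 51885 CPM, and almost none of the ileal bile acid binding protein gene Fabp6 (26.1 and 3.31 CPM, against 845 to 3890 CPM in the other 6). Fat-1 EtOH 3 and 4 and WT EtOH 2 carried markers of the large intestine, with the carbonic anhydrase gene Car1 at 11157, 12208 and 4041 CPM against 0 to 79.1 CPM in the other 13 libraries, while Hoxb13 was at or under the floor in all 16. Fat-1 EtOH 5 had the highest sum of B-cell follicle markers, 518 CPM against 2.50 to 105 CPM elsewhere. Smooth muscle markers summed to 778 to 1239 CPM in the 8 PF mice and to 1619 to 3354 CPM in the 8 EtOH mice, with no overlap. The part of muscle content in the differences below was not tested. Epithelial markers (Cdh1, Vil1, keratins and others) were present in every library, at a sum of 10367 to 18002 CPM.

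**Figure D1:**
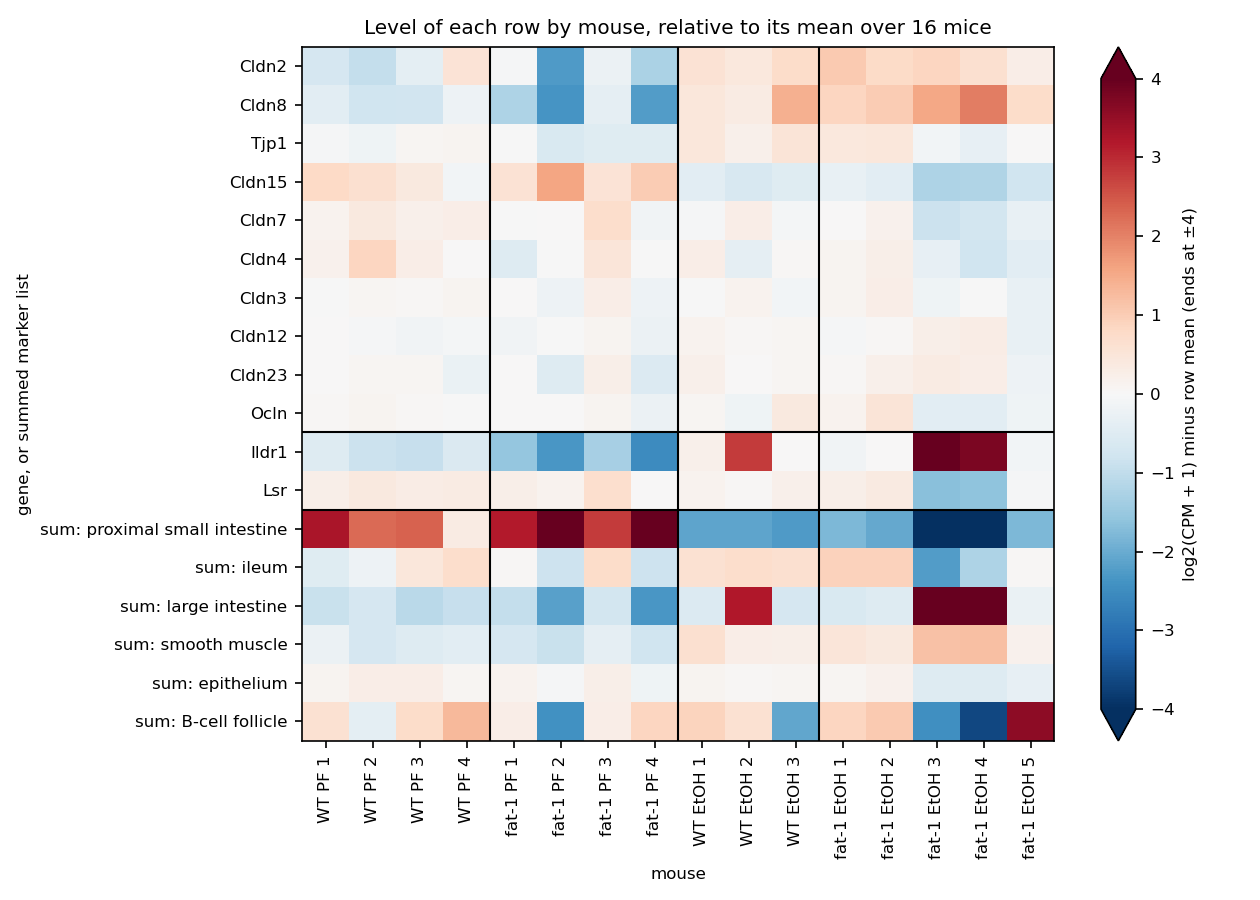
Level of the 10 genes, of Ildr1 and Lsr, and of summed marker lists in each of the 16 mice, as log2(CPM + 1) minus the mean of the row; red is above and blue below that mean, and colours end at 4 in either direction. The proximal small intestine row separates all PF from all EtOH mice, and fat-1 PF 2 and 4 and fat-1 EtOH 3 and 4 lie at its ends.

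The 2 channel-forming claudins moved in opposite directions with EtOH. Cldn15 (ENSMUSG00000001739, chromosome 5, 136966616 to 136975858) was at 733, 663, 551 and 390 CPM in WT PF mice and at 316, 267 and 303 CPM in WT EtOH mice. In fat-1 mice it was at 628, 1248, 622 and 858 CPM with the PF diet and at 344, 313, 180, 183 and 243 CPM with EtOH. Every EtOH mouse of either genotype was below every PF mouse. In fat-1 mice the level was 3.32-fold lower with EtOH (log2 fold change -1.73 ± 0.25 (SE), adjusted p = 0.000375 by edgeR), and averaged over both genotypes it was 2.56-fold lower (-1.36 ± 0.20, adjusted p = 0.000361). Within WT mice alone the difference was -0.98 ± 0.29 and did not pass the test (adjusted p = 0.189), although the groups of mice did not overlap. It passed there without fat-1 EtOH 3 and 4 and fat-1 PF 2 and 4 (-0.97, adjusted p = 0.0182), by DESeq2 (-0.99, adjusted p = 0.0457), by limma voom (adjusted p = 0.00418) and in a fit to the 2 groups alone (-0.97, adjusted p = 0.0260).

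Cldn2 (ENSMUSG00000047230, chromosome X, 139800828 to 139811386) showed the other direction. It was at 132, 109, 160 and 309 CPM in WT PF mice and at 312, 282 and 349 CPM in WT EtOH mice, where only WT PF 4 reached the EtOH range. In fat-1 mice it was at 203, 42.8, 179 and 87.8 CPM with PF and at 441, 358, 383, 327 and 253 CPM with EtOH, with no overlap. Cldn2 rose 2.75-fold with EtOH in fat-1 mice (log2 fold change 1.46 ± 0.40, adjusted p = 0.0112 by edgeR) and 2.21-fold averaged over genotypes (1.14 ± 0.29, adjusted p = 0.00853). In WT mice the value was 0.83 ± 0.43 (adjusted p = 0.401), which passed only by limma voom (1.06, adjusted p = 0.0308) among the alternatives run. The call in fat-1 mice was lost without fat-1 PF 2 and 4, when the difference was 0.89 (adjusted p = 0.0941).

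The PF mice at both ends of the proximal marker sum were also at the ends for both channel claudins. WT PF 4, with the lowest proximal marker sum of the 8 PF mice (1988 CPM), had the lowest Cldn15 and the highest Cldn2 of them. Fat-1 PF 2, with the highest sum (53403 CPM), had the highest Cldn15 and the lowest Cldn2. In rising order of the sum, Cldn15 in the 8 PF mice was at 390, 663, 551, 622, 628, 733, 858 and 1248 CPM. Only WT PF 2, at 663 CPM, was out of order. In the same order Cldn2 was at 309, 109, 160, 179, 203, 132, 87.8 and 42.8 CPM. Between the ends Cldn2 did not follow the order throughout: WT PF 2, with the next lowest sum (7760.2 CPM), had 109 CPM, and fat-1 PF 1, with a sum of 14570.3 CPM, had 203 CPM. The part of the region markers in the difference between the diets was not tested, and since the proximal sums of PF and EtOH mice do not overlap, the diet and the proximal content of the library cannot be told apart here. In whole tissue, fewer cells of a type and less RNA per cell also cannot be told apart. Without fat-1 EtOH 3 and 4 and fat-1 PF 2 and 4 together, Cldn15 was at -1.04 (adjusted p = 0.0154) in fat-1 mice and Cldn2 at 0.89 (adjusted p = 0.145).

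**Figure D2:**
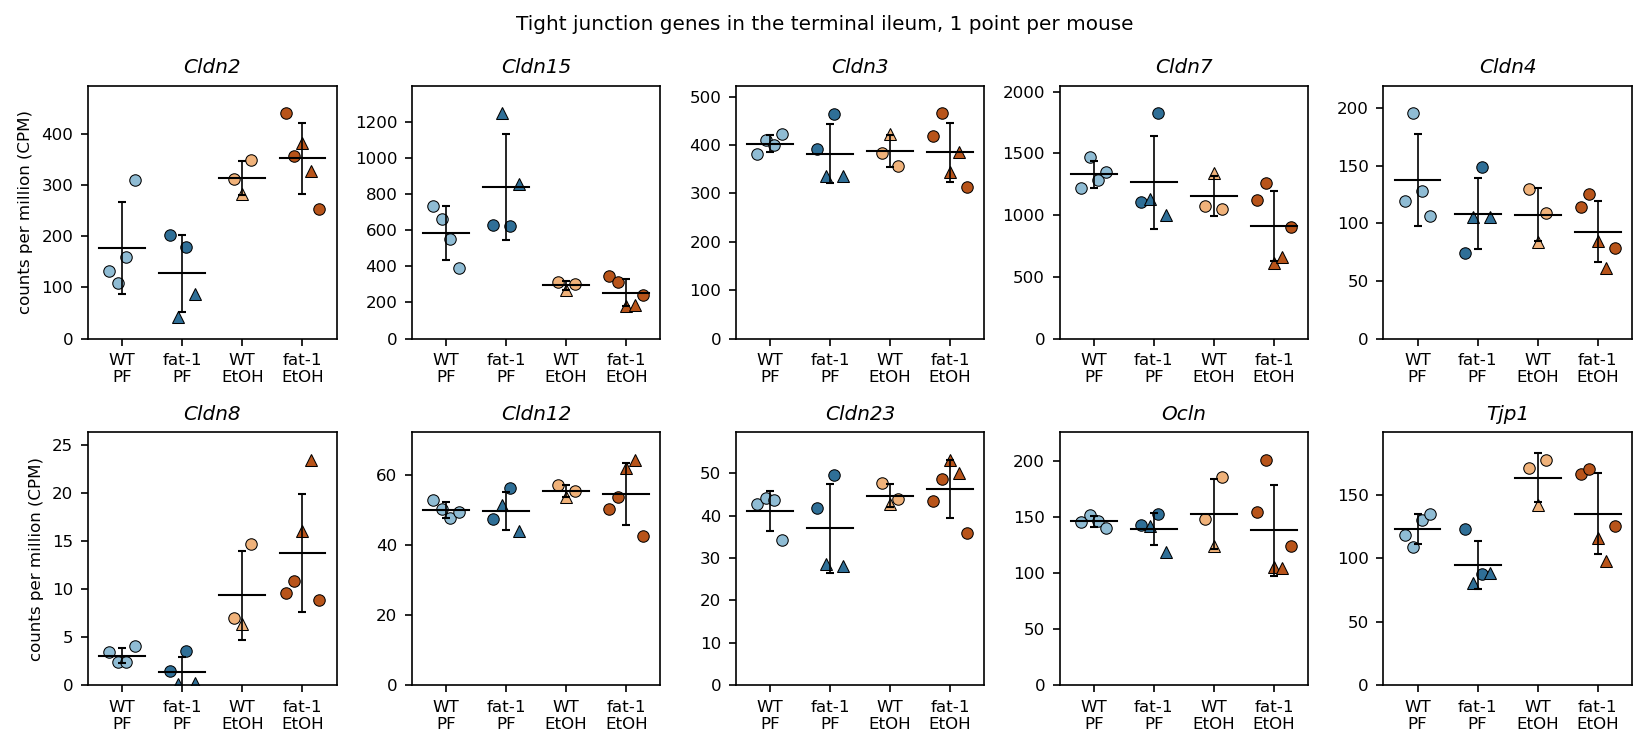
CPM of each of the 10 genes, 1 point per mouse, with the mean and SD of each group; triangles are fat-1 PF 2 and 4, WT EtOH 2 and fat-1 EtOH 3 and 4, the libraries that stand apart in region markers. Cldn15 separates PF from EtOH mice, Cldn8 does as well at a far lower level, and Cldn3 stays within 312 to 466.05 CPM.

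Cldn8 (ENSMUSG00000050520, chromosome 16, 88560828 to 88563183) was the least abundant of the 10 genes and had the largest fold change. In WT mice it was at 3.39, 2.38, 2.44 and 4.05 CPM with PF and at 6.98, 6.30 and 14.7 CPM with EtOH. In fat-1 mice it was at 1.48, 0.140, 3.55 and 0.245 CPM with PF and at 9.60, 10.8, 16.1, 23.5 and 8.81 CPM with EtOH. All 8 EtOH mice were above all 8 PF mice. The counts behind these levels were 1 to 39 in PF mice and 60 to 263 in EtOH mice, and the counts of 1 and 2 in fat-1 PF 2 and 4 lie under the floor. Cldn8 rose 10.1-fold with EtOH in fat-1 mice (log2 fold change 3.34 ± 0.62, adjusted p = 0.00133 by edgeR), and 5.54-fold averaged over genotypes (2.47 ± 0.43, adjusted p = 0.000966). In WT mice the value was 1.60 ± 0.60 (adjusted p = 0.264). It passed there by limma voom (1.51, adjusted p = 0.00903), in a fit to the 2 groups alone (1.62, adjusted p = 0.0267) and without fat-1 EtOH 3 and 4 and fat-1 PF 2 and 4 (1.61, adjusted p = 0.0215). The log2 fold change in fat-1 mice was 4.36 (adjusted p = 0.000418) without fat-1 PF 3, the fat-1 PF mouse with the most Cldn8. Without fat-1 PF 2 and 4 it was 2.47 (adjusted p = 0.0159), and without fat-1 EtOH 3 and 4 as well it was 1.99 (adjusted p = 0.019). Averaged over genotypes, the value without these 4 libraries was 1.80 (adjusted p = 0.00141 by edgeR). Fat-1 EtOH 3 and 4 had the highest levels of all 16 mice and fat-1 PF 2 and 4 the lowest, whereas WT EtOH 2, with 4041 CPM of Car1, had the lowest Cldn8 of the EtOH mice. The part of gut region in the Cldn8 difference was not tested.

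Cldn3, Cldn7 and Cldn4, the other abundant claudins, did not pass the test in any comparison by edgeR over all libraries. Cldn7, a claudin of the lateral membrane that binds EPCAM, was at 1217 to 1471 CPM with PF and 1052 to 1342 CPM with EtOH in WT mice, and at 1004 to 1827 and 609.5 to 1256 CPM in fat-1 mice. Its lowest values, 609.5 and 664 CPM, were those of fat-1 EtOH 3 and 4, which also had the lowest epithelial marker sums (10441 and 10367 CPM). The difference with EtOH in fat-1 mice was -0.47 ± 0.22 (adjusted p = 0.107), and it passed without fat-1 EtOH 2 (-0.62, adjusted p = 0.0387). Without fat-1 EtOH 3 and 4 it was -0.18 (adjusted p = 0.504). Cldn3 stayed between 312 and 466.05 CPM over all 16 mice, with means of 403 ± 17.6 (SD) CPM in PF and 388 ± 34.0 CPM in EtOH mice of the WT, and of 382 ± 61.1 and 385 ± 60.7 CPM in PF and EtOH mice with fat-1. Cldn4, a sealing claudin and like CLDN3 a receptor of a clostridial enterotoxin, was at 107 to 196 CPM in WT PF and 83.6 to 130 CPM in WT EtOH mice, and at 74.2 to 149 and 61.0 to 126 CPM in fat-1 mice on the same diets. Its difference in WT mice was -0.36 ± 0.28 (adjusted p = 0.588).

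The less usual claudins also did not pass in the edgeR fit of 1 mean per group with TMM scaling. Cldn12, which lacks the PDZ-binding end by which most claudins bind ZO-1, was at 42.6 to 64.3 CPM over the 16 mice. The 3 WT EtOH mice (57.0, 53.5 and 55.5 CPM) were above the 4 WT PF mice (52.8, 50.1, 47.5 and 49.4 CPM), by 0.15 ± 0.12 on the log2 scale (adjusted p = 0.615). Cldn23, a claudin of differentiated surface cells, was at 28.1 to 53.2 CPM, with its lowest values in fat-1 PF 2 and 4 (28.6 and 28.1 CPM). Its difference with EtOH in fat-1 mice was 0.32 ± 0.16 (adjusted p = 0.133), and it passed with upper-quartile scaling (0.47, adjusted p = 0.0369), with the replicate number as a block (0.43, adjusted p = 0.0433) and without fat-1 PF 3 (0.50, adjusted p = 0.0235). Without fat-1 EtOH 3 and 4 and fat-1 PF 2 and 4 it was -0.082 (adjusted p = 0.729).

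Occludin showed no difference that passed. In WT mice Ocln was at 146 ± 4.94 CPM with PF and 153 ± 31.4 CPM with EtOH (SD), and in fat-1 mice at 139 ± 14.5 and 138 ± 40.8 CPM. The spread was wider with EtOH: fat-1 EtOH mice ran from 105 and 106 CPM, in the libraries with large-intestine markers, to 202 CPM. Tjp1 (ENSMUSG00000030516, chromosome 7, 65296165 to 65527781) was at 119, 109, 130 and 134 CPM in WT PF mice and 171, 142 and 178 CPM in WT EtOH mice, with no overlap. In fat-1 mice it was at 123, 80.6, 87.6 and 88.1 CPM with PF and at 166, 170, 116, 97.8 and 125 CPM with EtOH, where fat-1 PF 1 lay within the EtOH range. Tjp1 rose 1.42-fold with EtOH in fat-1 mice (0.51 ± 0.17, adjusted p = 0.0284 by edgeR) and 1.38-fold averaged over genotypes (0.46 ± 0.13, adjusted p = 0.0119), and the WT value was 0.41 ± 0.19 (adjusted p = 0.343). In WT mice it passed by limma voom (0.45, adjusted p = 0.0153) and in a fit to the 2 groups alone (0.42, adjusted p = 0.0410). The call in fat-1 mice is the least stable of the 4: it was lost when any 1 of fat-1 PF 2, 3 or 4 or of fat-1 EtOH 1 or 2 was left out (adjusted p = 0.0585 to 0.0811) and in a fit to the 2 groups alone (adjusted p = 0.0807). Without fat-1 PF 2 and 4 both the fat-1 value (0.36, adjusted p = 0.246) and the averaged one (0.39, adjusted p = 0.0675) did not pass.

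Of the whole set, 4 of the 10 genes were called in fat-1 EtOH against fat-1 PF mice, where 37.4% of all 13811 genes tested were called, 18.7% higher and 18.8% lower. Averaged over genotypes the same 4 genes were called, 3 higher and 1 lower, against 35.9% of all genes, 18.3% higher and 17.6% lower. A share of 4 in 10 is near these backgrounds. In WT EtOH against WT PF mice edgeR called 0 of the 10, against 0.0796% of all genes. There 3 of the 10 had an unadjusted p under 0.05, against 14.1% of all genes. DESeq2 called 1 of the 10 and 1.86% of all genes, limma voom 4 of the 10 and 20.7%, and edgeR fitted to the 2 groups alone 3 of the 10 and 8.32%. The groups of mice did not overlap for 4 of the 10 genes in WT (Cldn15, Cldn8, Cldn12 and Tjp1), against 24.3% of all genes, and for 3 of the 10 in fat-1 mice (Cldn15, Cldn2 and Cldn8), against 24%. With EtOH the 10 genes had a median log2 fold change of 0.09 in WT mice, against 0.01 for all genes, and of 0.07 in fat-1 mice, against 0.05. The WT and fat-1 comparisons have no mouse in common, and the averaged one uses both.

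**Figure D3:**
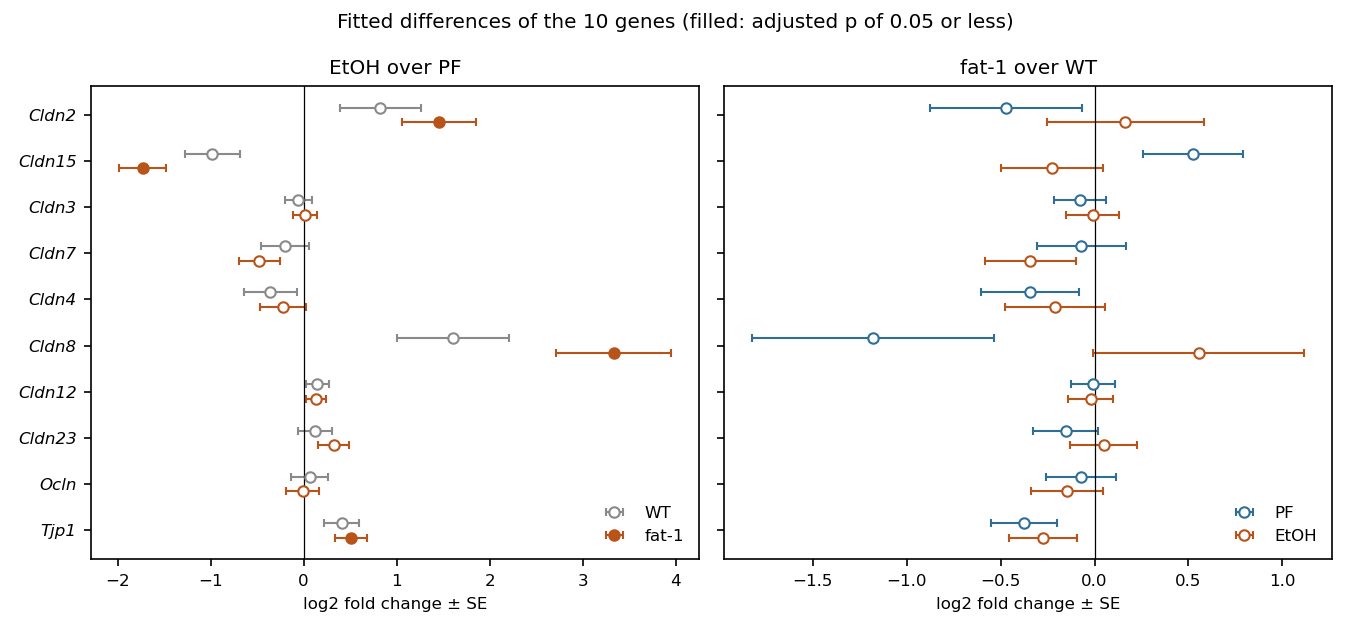
Fitted log2 fold change with its SE for the 10 genes, EtOH over PF within each genotype (left) and fat-1 over WT within each diet (right); filled points passed at an adjusted p of 0.05 or less. Cldn15 lies lowest and Cldn8 highest with EtOH in both genotypes, and no point passed between the genotypes.

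The genotype comparisons gave no call among the 10 genes. With the PF diet 0 of the 10 passed, against 0% of all genes by edgeR (1758 genes had an unadjusted p under 0.05, DESeq2 called 189 genes, or 1.37%, and limma voom 30, or 0.217%, and neither called any of the 10, of which DESeq2 gave 1 no adjusted p). The fat-1 over WT differences were -0.47 ± 0.40 for Cldn2, 0.52 ± 0.27 for Cldn15, -1.18 ± 0.64 for Cldn8 and -0.37 ± 0.18 for Tjp1, and the smallest adjusted p was 0.399. The Cldn8 value ran from -2.20 to -0.83 when any 1 library was left out. With the EtOH diet 0 of the 10 passed, against 0.00724% of all genes, and neither DESeq2 nor limma voom, which called 0.0362% and 0.00724%, called any of the 10. There the 4 genes differed by 0.16 ± 0.42, -0.23 ± 0.27, 0.56 ± 0.56 and -0.28 ± 0.18 in the same order (smallest adjusted p of the 10 = 0.757). By the edgeR fit of all libraries none of the 10 genes had an unadjusted p under 0.05 in either comparison, while with the PF diet DESeq2 gave 1 and limma voom 2 and with the EtOH diet both gave 0. The groups of mice overlapped for all 10 genes in both, where 6.87% (PF) and 2.45% (EtOH) of all genes did not overlap.

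Whether EtOH acted differently in the 2 genotypes was tested by the interaction. Again 0 of the 10 genes and 0% of all genes passed, by edgeR, DESeq2 and limma voom alike, and none of the 10 had an unadjusted p under 0.05 by edgeR (1141 of all genes did), while by DESeq2 and by limma voom 1 of the 10 did. The interaction was 0.64 ± 0.58 for Cldn2, -0.75 ± 0.38 for Cldn15, 1.73 ± 0.86 for Cldn8 and 0.10 ± 0.25 for Tjp1, with adjusted p from 0.595 to 0.903. Cldn2, Cldn15, Cldn8 and Tjp1 passed in fat-1 and not in WT mice in the edgeR fit of all 16 libraries, but a difference between the genotypes was not shown, and by limma voom all 4 passed in WT mice as well. The errors of the interaction leave room for sizeable differences, above all for Cldn8, whose value ran from 1.38 to 2.75 when any 1 library was left out.

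Per kilobase of exon, the scale on which levels of different genes can be compared, Cldn7 had the highest mean of the claudins in every group, at 35.5% to 52.8% of the summed CPM per kb of the 8 claudins. Cldn3 held 17.4% to 33.4%, above Cldn15 in 3 of the group means and below it in fat-1 PF mice. Cldn15 held 13.2% to 38.3% in PF and 9.39% to 12.4% in EtOH mice, and Cldn2 held 0.840% to 6.67% in PF and 6.43% to 13.1% in EtOH mice. Cldn4 held 3.12% to 6.87% over all mice, Cldn23 1.01% to 3.26%, Cldn12 0.750% to 1.66% and Cldn8 at most 1.09%. In fat-1 PF 2 Cldn15 (38.3%) was just above Cldn7 (37.8%). Summed over the 8 claudins the level was 1443 ± 85.7 CPM per kb with PF and 1236 ± 75.9 with EtOH in WT mice (SD), and 1479 ± 226 with PF and 1094 ± 233 with EtOH in fat-1 mice.

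The ratio of Cldn15 to Cldn2 per kb summarises the shift between the channel claudins. In WT mice it was 8.70, 9.51, 5.4001 and 1.97 with PF and 1.58, 1.48 and 1.36 with EtOH. In fat-1 mice it was 4.85, 45.6, 5.45 and 15.3 with PF and 1.22, 1.37, 0.735, 0.876 and 1.503 with EtOH. Each PF mouse had a higher ratio than each EtOH mouse. The lowest PF ratio, 1.97, belonged to WT PF 4, the PF library with the least proximal marker RNA, and the ratio was below 1 only in fat-1 EtOH 3 and 4. This pair of genes was set against each other after their values were seen, so no test was made of the ratio.

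**Figure D4:**
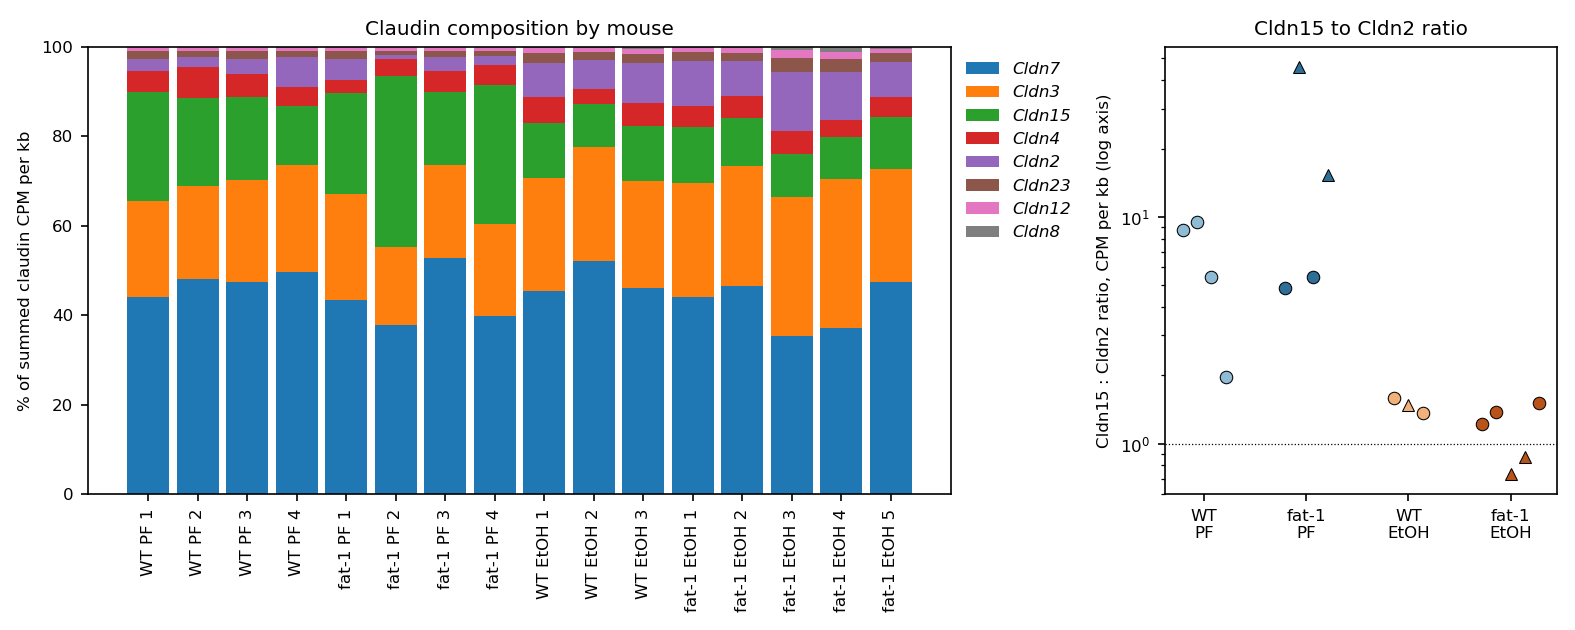
Share of each claudin in the summed claudin CPM per kb of each mouse (left, stacked to 100%) and ratio of Cldn15 to Cldn2 per kb (right, log axis; triangles as in the plot of single genes, dotted line at 1). Each EtOH bar holds less Cldn15 than each PF bar, the Cldn2 shares overlap (at most 6.67% in PF and at least 6.43% in EtOH mice), and the ratio is 1.97 to 45.6 in PF and 0.735 to 1.58 in EtOH mice.

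The other claudins added little. Of 16 further claudin genes, 15 had a row and only Cldn1, Cldn5 and Cldn10 had enough counts to be tested, with 0 of 3 called by the edgeR fit of all libraries in the 6 comparisons. Without fat-1 EtOH 3 and 4, when 30.8% of all genes were called in fat-1 mice, Cldn5 passed there (1.52, adjusted p = 0.0250). Cldn5, the claudin of blood vessel endothelium, was at 1.48 to 3.74 CPM in 15 mice and at 12.1 CPM in fat-1 EtOH 5, which also had the highest endothelial marker sum, 114 CPM against 33.8 to 57.9 CPM elsewhere. Cldn1 stayed at 0.535 to 2.99 CPM and Cldn10 at no more than 1.09 CPM, with 1 library under the floor.

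Of 11 other membrane proteins of the junction, 5 were called higher and 1 lower with EtOH in fat-1 mice, against 18.7% of all genes called higher and 18.8% lower. The fold change was above 0 for 6 of the 11, at a median log2 fold change of 0.29 against 0.05 for all genes, and 0 of 11 passed in WT mice. Ildr1, the angulin-2 of tricellular contacts, was at 3.82, 1.82, 4.65 and 1.47 CPM in fat-1 PF mice and at 11.7, 13.3, 223, 192 and 12.1 CPM in fat-1 EtOH mice (4.93 ± 1.14, adjusted p = 0.00472). Its values of 223 and 192 CPM, and of 97.3 CPM in WT EtOH 2 against 15.2 and 13.3 CPM in the other WT EtOH mice, were those of the 3 libraries with large-intestine markers. Lsr, the angulin-1 of the same contacts, was named after its values were seen: it was at 76.4 and 79.6 CPM in fat-1 EtOH 3 and 4 against 237 to 388 CPM in the other 14 libraries, and did not pass (adjusted p = 0.209). Without fat-1 EtOH 3 and 4 the fold change of Ildr1 was 2.09 (adjusted p = 0.0315), and without fat-1 PF 2 and 4 as well it was 1.57 and did not pass (adjusted p = 0.219). Without fat-1 PF 2 and 4 alone the value was 4.41, and the call was lost (adjusted p = 0.0766). By limma voom it was 2.97 and did not pass (adjusted p = 0.131). Jam2, a junctional adhesion molecule also found in endothelium, rose from 6.42 to 8.70 CPM to 10.8 to 18.2 CPM (0.95 ± 0.18, adjusted p = 0.00134). Marveld2, the tricellular protein tricellulin, was higher by 0.29 ± 0.10 (adjusted p = 0.0319) and the polarity protein gene Crb3 was lower (-0.47 ± 0.12, adjusted p = 0.00890). The Marveld2 call was lost under 8 of 29 alternatives and the Crb3 call under 5.

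Genes of the cytoplasmic plaque and of cell polarity gave 5 higher and 1 lower of 21 in fat-1 mice, against the same 18.7% and 18.8% of all genes, with a median of -0.05, and 0 of 21 in WT mice. The junction protein paracingulin, Cgnl1, was higher by 1.75 ± 0.34 (adjusted p = 0.00169), from 4.24 to 6.995 CPM with PF to 9.31, 9.18, 31.6, 26.9 and 17.5 CPM with EtOH, and again fat-1 EtOH 3 and 4 held its highest levels. Mpdz, a scaffold with many PDZ domains, was higher by 1.14 ± 0.21 (adjusted p = 0.00131) and all 5 fat-1 EtOH mice (8.46 to 12.1 CPM) were above all 4 fat-1 PF mice (4.05 to 5.51 CPM). Amot was higher by 0.42 ± 0.15 (adjusted p = 0.0391) and Pard6b, a partner of atypical protein kinase C, lower (-0.53 ± 0.17, adjusted p = 0.0253). Neither call was stable: Amot was at 0.21 (adjusted p = 0.364) without fat-1 PF 2 and 4 and lost its call under 14 of 29 alternatives. Pard6b was at -0.26 (adjusted p = 0.1495) without fat-1 EtOH 3 and 4 and lost its call under 11 of them.

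Regulators of junction contractility gave 3 higher and 2 lower of 12 in fat-1 mice, where 37.4% of all genes were called in either direction, with a median of 0.02, and 0 of 12 in WT mice. The non-muscle myosin heavy chains Myh10 and Myh9 were higher by 1.04 ± 0.22 (adjusted p = 0.00291) and 0.47 ± 0.13 (adjusted p = 0.01001). The small GTPases Cdc42 and Rhoa were lower, at -0.48 ± 0.13 (adjusted p = 0.00942) and -0.29 ± 0.10 (adjusted p = 0.0350). The Rhoa call was lost under 18 of 29 alternatives, and its value was -0.12 without fat-1 EtOH 3 and 4. Beside these counts, all 6 smooth muscle markers (Acta2, Myh11 and others) were higher with EtOH in fat-1 mice, and their sum was 778 to 1239 CPM in PF and 1619 to 3354 CPM in EtOH mice. The 11 epithelial markers gave 3 higher and 2 lower. The part of muscle or of gut region in these counts was not tested. Averaged over genotypes the higher and lower calls were 5 and 1 of 11, 5 and 1 of 21, and 3 and 1 of 12. Without fat-1 PF 2 and 4, when 13.9% of all genes were called in fat-1 mice, they were 1 and 1 of 11, 3 and 0 of 21, and 1 and 0 of 12 there.

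**Figure D5:**
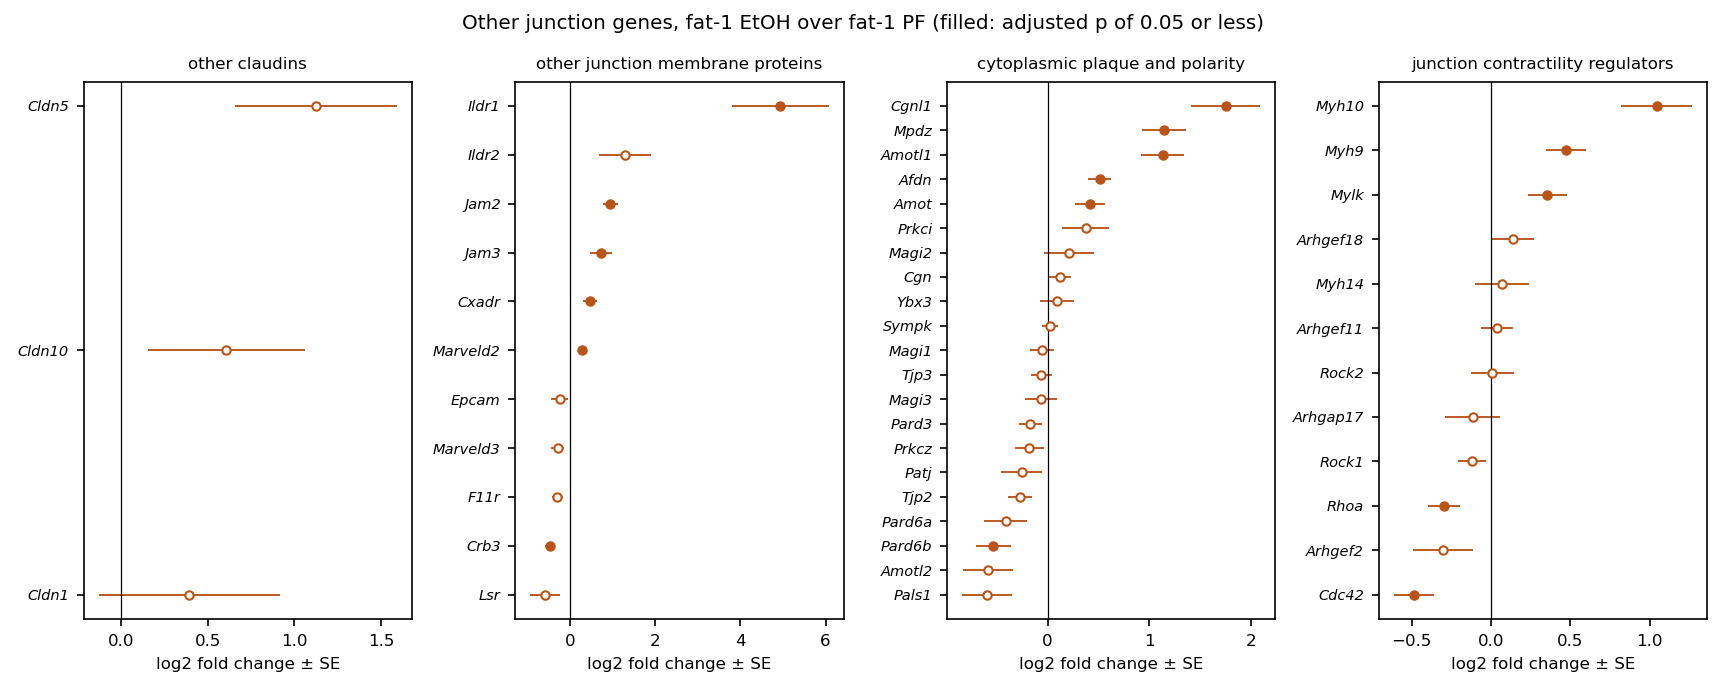
Log2 fold change with its SE of the tested genes of the other junction lists, fat-1 EtOH over fat-1 PF; filled points passed at an adjusted p of 0.05 or less, and each panel has its own axis. Ildr1 at 4.93 lies far above the other membrane proteins, and the panels of plaque and contractility genes hold called points on both sides of 0.

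The genes whose levels followed each called gene most closely over the 16 mice were found by the root mean square difference of log2 CPM, each centred on its own mean. Nearest to Cldn15 were Galm (0.17), D130043K22Rik (0.20) and Dll1 (0.20), on a scale where Cldn15 itself had an SD of 0.82. Nearest to Cldn2 were Tnfrsf21 (0.33), Neto2 (0.36) and Ybx2 (0.37), with an SD of 0.92 for Cldn2. Nearest to Cldn8 were Hoxb6 (0.33), Hoxb8 (0.39) and Gsdmc3 (0.60), with an SD of 1.74, and Hoxb6 and Hoxb8 encode transcription factors that pattern the body along its axis. Near to Tjp1 were Pik3c2b (0.13) and Dock6 (0.13), against an SD of 0.36. These are likenesses of level over libraries that also differ in region markers and in diet.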

How the data were processed

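RNA was sequenced from 16 ilea (poly(A)-selected, stranded kit, 1 library per mouse). The authors aligned reads to mm10 with TopHat2 and the deposited table holds raw read counts per Ensembl gene from HTSeq, whose strand setting is not given in the sources used here; Cldn3 shares 40 exon bases with an antisense gene. No authors' fold changes were used.

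The deposited counts were scaled by TMM and tested with edgeR (4.0.16, R 4.3.3; quasi-likelihood, robust) in 1 fit of all 16 libraries with 1 mean per group, after filterByExpr kept 13811 of 21965 genes (4158 had no count). P-values were adjusted over all genes tested by Benjamini-Hochberg and a gene was called at 0.05 or less. CPM used TMM-adjusted library sizes; CPM per kb used merged exon lengths of GENCODE M21 (GRCm38), as did positions. Alternatives were DESeq2 (1.42.0), limma voom (3.58.1), other scalings and filters, subsets of libraries and a replicate block. The fit was tested on simulated counts in which no library stood apart in region markers, so that run does not bear on the libraries here that do. No 2 libraries of 1 group agreed within sampling noise. SDs are over the mice of a group. The SE of an edgeR value is its absolute log2 fold change divided by the square root of the F statistic of its test. All 16 libraries share 1 estimate of the spread there, so a WT value also carries the spread of the fat-1 libraries. Errors include counting error at 8422645 to 11438539 counts per library.

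The genes and lists were chosen with earlier results of these data known. Named are the 10 genes; of each other junction list up to 4 called genes with the largest and smallest fold change; and the 3 genes nearest to each called gene, of which 1 is not reported here. The study's own test (Cuffdiff) needs aligned reads and was not repeated.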

Additional observations from a re-analysis of the deposited data

Results flagged for a closer look

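In 30 sets of 1 gene in 1 group of 4 or 5 mice, 2 held a mouse farther from the rest than Dixon's 95% limit, and chance flags about 1 set in 20. Cldn7 was at 1827 CPM in fat-1 PF 3 against 1004 to 1130 CPM in the other fat-1 PF mice. Cldn23 was at 34.2 CPM in WT PF 4 against 42.6 to 44.3 CPM in the other WT PF mice, and WT PF 4 was also the PF library with the least proximal small intestine marker RNA (1988 CPM). Neither gene was called in the edgeR fit that gives the main values. Leaving out fat-1 EtOH 2 brought Cldn7 past the threshold with EtOH in fat-1 mice (-0.62, adjusted p = 0.0387). Leaving out fat-1 PF 3 brought Cldn23 past it (0.50, adjusted p = 0.0235). In none of the 10 genes did every EtOH mouse of one genotype lie above its PF mean and every EtOH mouse of the other below.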

How the results depend on the processing

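In fat-1 mice the call of Cldn15 and of Cldn8 held in every alternative that kept the gene; the stricter filter (10 counts in every library) dropped Cldn8, and the cause of the changes below was not tested unless fewer libraries or genes are named. Genes called in WT EtOH against WT PF mice were 11, and 257 by DESeq2, 2853 by limma voom, 2 with the looser and 0 with the stricter filter, 1103 in a fit to the 2 groups alone, 18 with the replicate block, 273 without fat-1 EtOH 3 and 4, 26 without WT EtOH 2 as well, 781 without fat-1 EtOH 3 and 4 and fat-1 PF 2 and 4, and 0 to 66 without any 1 library. Of the 10 junction genes, those called there were 1, 4, 3 and 2 by DESeq2, by voom, in the fit to the groups alone and without the 4 libraries, against 0. In fat-1 mice 5170 genes were called, and 3086 in the fit to the groups alone, 1965 without fat-1 PF 2 and 4 and 1659 without the 4 libraries, where 2 junction genes (Cldn15 and Cldn8) rather than 4 were called in both of the last; without any 1 library they were 3 to 4, and all genes 3928 to 5430. Genes called between the genotypes on the PF diet were 189 by DESeq2, 30 by voom and 0 to 114 without any 1 library, against 0. On the EtOH diet they were 5 by DESeq2 and 0 with epithelial scaling, in the fit to the groups alone and with the block, and 0 to 1 without any 1 library, against 1. Signs turned in uncalled values only: Cldn23 with EtOH in fat-1 mice (-0.082 without the 4 libraries), Cldn2 between PF groups (0.092 without fat-1 PF 2 and 4 alone, 0.089 without fat-1 EtOH 3 and 4 too), Cldn15 between EtOH groups (0.016 and 0.013 without fat-1 EtOH 3 and 4, alone or with fat-1 PF 2 and 4), Cldn8 there (-0.16 without the 3 large-intestine libraries) and the interaction of Tjp1 (-0.053 without fat-1 PF 2 and 4). Of 916 further alternative values of genes given without a fold change, 117 had the other sign and 4 passed.

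Upper-quartile scaling moved the median of all genes in fat-1 mice by 0.15 and made 69.0% rather than 49.9% of calls higher (68.2% rather than 50.9% averaged over genotypes), and epithelial scaling moved the medians between genotypes by 0.16 (PF) and 0.22 (EtOH); the 4 called genes kept their calls, and with upper-quartile scaling Cldn23 passed as well in fat-1 mice (0.47, adjusted p = 0.0369). Replicate numbers do not pair mice: deviations of same-numbered mice correlated at -0.022 on average over 21 pairs, against 0.0070 over 74 others. With the replicate block EtOH gave 18 calls in WT mice. In fat-1 mice it gave 4748, which held 5 of the 10 junction genes, Cldn23 being the fifth (0.43, adjusted p = 0.0433). Cldn8 rests on 1 to 39 counts in PF mice. A fit to the groups compared alone could not be made for the averaged comparison or the interaction, which use all groups. Of the named genes of the other junction lists, Jam2 and Cgnl1 kept their calls in fat-1 mice under every alternative; of 29 alternatives, Marveld2 lost its call under 8, Pard6b under 11, Amot under 14 and Rhoa under 18, and the others under 1 to 5.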

Other observations

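Markers listed as ileal gave, as a sum, a different picture from the proximal ones. The summed level of Slc10a2, Fabp6, Fgf15, Slc51a, Slc51b and Guca2b was 2487 to 7366 CPM in PF and 942 to 8413 CPM in EtOH mice. Only Guca2b of these 6 was called in fat-1 mice (lower), against 37.4% of all genes. It was at 495 to 2124 CPM in PF and 28.9 to 363 CPM in EtOH mice, with no overlap. In this Guca2b followed the proximal sum rather than the ileal name, and its counts are part of the ileal sum. Crypt markers summed to 567 to 829.1 CPM in PF mice and to 233 to 1012 CPM in EtOH mice, lowest in fat-1 EtOH 3 and 4. In fat-1 mice 0 of the 6 were called, against 37.4% of all genes, at a median log2 fold change of 0.34 against 0.05. Averaged over genotypes 1 of the 6 was called, higher, against 18.3% of all genes called higher.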
